A study of Mus musculus with 42 samples.

Results

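Interferon-response NK cells are here uterine cells in a natural killer (NK) gate with transcripts of interferon-stimulated genes, some beside transcripts of other lineages. They were chosen as NK-gated single cells with at least 5 unique molecular identifiers (UMIs, each standing for 1 captured transcript) of Ifit1, Ifit3, Mx1, Rsad2, Cxcl10 and Ifi44 together. The NK gate asked for a mitochondrial UMI share under 10%, at least 1 UMI of Ncr1, Klrb1c and Eomes, no UMI of the T cell gene Cd3e or the B cell gene Cd79a, and at most 2 UMIs of the macrophage genes C1qa, C1qb and C1qc. Of 15175 cells in all, 13084 lay under the mitochondrial limit, 9506 passed the whole gate and 250 were interferon-response cells, which is 2.63% of the gate (exact binomial 95% interval 2.32 to 2.97%). The comparison cells were the 7362 NK-gated cells with 0 UMIs of the same 6 genes, and the 1894 cells with 1 to 4 UMIs lay between.

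The study followed mouse uterine NK cells through decidualization, the change of the uterine lining that makes room for the embryo. Live CD45+NK1.1+NKp46+ cells were sorted from the digested uterus of C57BL/6 females of 8 to 12 weeks, either virgin or at gestation day 8.5 (gd8.5), and no gene was altered in either group. The uteri of more than 1 mouse were pooled in each. The cells of both groups carried different sample tags and were mixed before capture on the BD Rhapsody system. The 2 count files analysed here hold the same 15175 cells, with 6821 genes in one and 28416 others in the other, and no tag that says from which group a cell came. Virgin and gd8.5 cells therefore cannot be told apart below, all cells count as 1 pooled sample, and no test or p-value was possible. Intervals are 95% intervals for counting error only. They do not cover differences between mice.

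Interferons are secreted proteins that warn cells of viruses. Type I interferons bind a receptor that acts through the kinases Jak1 and Tyk2 and the factors STAT2 and IRF9, whereas interferon gamma, which NK cells themselves release, has a receptor of its own. Both switch on interferon-stimulated genes, whose products block viral RNA, sense foreign nucleic acid, coat or break up the compartments of intracellular microbes and raise antigen presentation. NK cells answer type I interferon with more cytotoxicity and interferon gamma. In the uterus, tissue-resident NK cells (trNK) differentiate during decidualization and make large amounts of granzymes.

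The factors that type I interferon activates bind a DNA element made of a repeated GAAA, so the stretches of promoter that hold this motif are shown for 4 genes of the rule and for 2 other genes described below. Windows from 250 bases before to 50 after each gene start were taken from RefSeq on GRCm38.p6, a different build from the GRCm39 of the counts. Capitals mark GAAANNGAAA on either strand, and overlapping matches run together.
Ifit1, chr19:34640755-34640843, plus strand: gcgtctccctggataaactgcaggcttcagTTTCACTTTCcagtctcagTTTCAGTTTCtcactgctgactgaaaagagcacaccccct
Ifit3, chr19:34583343-34583446, plus strand: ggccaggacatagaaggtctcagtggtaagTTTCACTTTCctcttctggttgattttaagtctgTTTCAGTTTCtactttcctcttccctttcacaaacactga
Rsad2, chr12:26456533-26456602, minus strand: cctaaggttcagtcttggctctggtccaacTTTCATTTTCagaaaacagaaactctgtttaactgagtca
Cxcl10, chr5:92349063-92349132, minus strand: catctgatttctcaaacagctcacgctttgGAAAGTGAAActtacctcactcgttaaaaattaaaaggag
Isg15, chr4:156200845-156200926, minus strand: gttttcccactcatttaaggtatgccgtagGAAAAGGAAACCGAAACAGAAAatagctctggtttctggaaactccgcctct
Igtp, chr11:58199492-58199555, plus strand: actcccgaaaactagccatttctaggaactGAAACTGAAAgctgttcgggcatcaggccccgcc

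The motif began 104 and 85 bases before the start of Ifit1, 156 and 122 before Ifit3, 120 before Rsad2, 213 before Cxcl10, 34 before Igtp, and 78, 72 and 66 before Isg15, where the 3 matches overlap. The window of Ifi44 held none, and Mx1 had no window in the table. Over 32851 windows of this length, 3.44% held the motif on either strand, and 3.99% of 27025 genes had such a window. Among genes with a window, it was held by 16 of 36 antiviral effectors (44.4%), 9 of 14 nucleic acid sensors (64.3%), all 9 interferon-inducible GTPases and 5 of 17 genes of MHC class I presentation (29.4%). It was held by 5 of 16 cytolytic effector genes (31.3%), by none of 10 genes of differentiated trNK cells and by none of 14 cell division genes. A match describes these letters and is not shown to be a site in use.

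NK identity of the interferon-response cells was checked with 22 NK genes that the rule did not use. Their median ratio of expression to the comparison cells was 1.31, where expression is given as CPM, the UMIs of a gene summed over the cells of a group and divided by all UMIs of those cells, on the scale on which all genes together make 1000000. Nkg7, a cytotoxic granule protein, had 1344 CPM against 1216 in the comparison cells. Tyrobp, the adaptor of activating NK receptors, had 1903 against 1948 CPM, and Il2rb, the interleukin-15 receptor chain on which NK cells depend, 1604 against 1615 CPM. Klrk1, which encodes NKG2D, had 428 against 217 CPM (ratio 1.97, 1.82 to 2.14). In all, 14 of the 22 genes lay above 1, 1 was at least 2-fold higher (Klrc1, 2.11) and 1 at least 2-fold lower (Prf1, 0.498). Ncr1 and Klrb1c, both used by the gate, were found in 72.0% and 67.6% of the interferon-response cells and in 74.1% and 70.4% of the comparison cells, and Eomes in 56.4% against 76.3%. Only 1 UMI of Ncr1, Klrb1c and Eomes carried 54 interferon-response cells into the gate (21.6%), against 9.24% of the comparison cells.

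Transcripts of other lineages stood beside the NK genes in a part of the cells. A load was set, after the data were seen, as at least 10 globin UMIs, 3 UMIs of macrophage genes (C1qa, C1qb and C1qc of the gate and 7 others), 10 of MHC class II genes, 5 of collagen-type stromal genes or 3 of neutrophil genes. By this measure 72 of the 250 interferon-response cells carried a load (28.8%, 23.3 to 34.8%) against 329 of the 7362 comparison cells (4.47%, 4.01 to 4.97%). Globin load was found in 17 interferon-response cells, macrophage load in 32, MHC class II load in 28, stromal load in 14 and neutrophil load in 4, and 21 cells carried more than 1 kind. The comparison cells held 10, 218, 85, 47 and 4 such cells in the same order. Of the 54 cells that passed the gate with 1 NK UMI, 57.4% carried a load. For the 178 interferon-response and 7033 comparison cells without a load, the median ratio of the NK genes was 1.46 and the interferon-response cells were 2.00% of 8912 NK-gated cells (1.72 to 2.31%). Over the marker lists without the genes of the gate and with all cells, 8 of 8 macrophage, 5 of 5 dendritic, 4 of 4 neutrophil, 6 of 8 stromal and 6 of 6 erythroid genes with enough UMIs were at least 2-fold higher, and 1 of 4 T cell, 1 of 2 B cell and 0 of 1 mast cell genes. The 5 dendritic genes were Itgax and the MHC class II genes H2-Aa, H2-Ab1, H2-Eb1 and Cd74. Flt3, Xcr1 and Cd209a had too few UMIs. The summed level in interferon-response against comparison cells was 930 against 135 CPM for macrophage, 2819 against 451 for dendritic, 146 against 3.51 for neutrophil, 2369 against 449 for stromal and 14193 against 83.0 for erythroid genes. Without cells with a load the same sums were 255 against 113, 552 against 326, 4.82 against 3.10, 333 against 395 and 30.8 against 36.6 CPM. In this dendritic sum Itgax, which was found in 40.2% of all comparison cells, made up 325 against 145 CPM. Most of the stromal sum without cells with a load was likewise Pecam1, with 269 against 302 CPM, and Epcam, with 42.4 against 70.7 CPM. These 2 genes were found in 56.8% and 26.6% of all comparison cells. Of the genes with 30 UMIs expected from the comparison cells, 2 of 2 macrophage, 5 of 5 dendritic, 2 of 2 erythroid and 0 of 2 stromal genes were at least 2-fold higher, and no neutrophil gene had as many. Outside the genes of the rule, the markers with 0 UMIs in the interferon-response cells were Siglech, Ly6g, Cd8a, Cd8b1, Ms4a1, Krt18, Mcpt4, Tpsb2, Tpsab1 and Fcer1a, whereas the neutrophil genes S100a8 and S100a9 had ratios of 95.9 and 114 from 4 cells each. Whether such cells are doublets, cells with free RNA of other cells or another cell type was not tested, and the main results below are given with and without them.

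**Figure D1:**
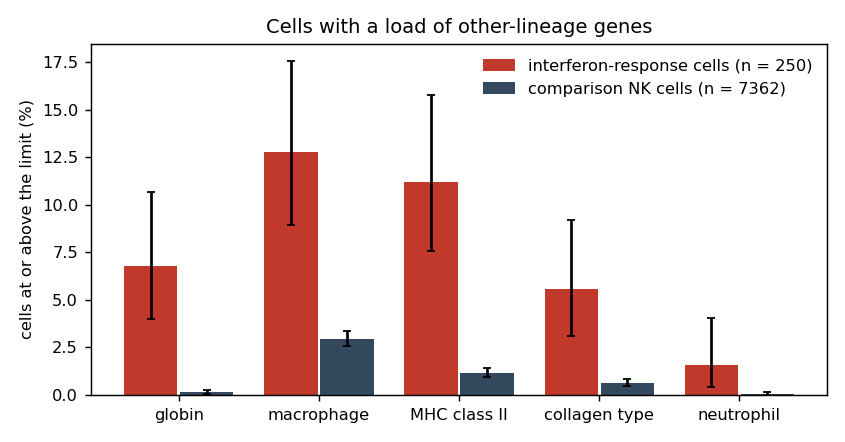
Share of cells (%, vertical axis, from 0) at or above the limit of each other-lineage gene group (horizontal axis), for the 250 interferon-response cells (red) and the 7362 comparison cells (dark blue). Bars are shares and lines exact binomial 95% intervals: each red bar stands above its blue neighbour, from 1.60% against 0.0543% for neutrophil genes to 12.8% against 2.96% for macrophage genes.

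The cells differed in depth as well. The whole set held 83499186 UMIs, with a median of 3364 UMIs per cell (231 to 57196). The interferon-response cells had a median of 3776 UMIs (756 to 29656) and 1672 detected genes, and the comparison cells 5904 UMIs (415 to 49541) and 2157 detected genes. A sum of raw UMIs selects deeper cells at a given expression level, yet the chosen cells were the shallower group. Of the 250 cells, 78 lay between the 200 and 2500 UMIs that the methods give as limits, among 2442 NK-gated cells in that range (3.19%, 2.53 to 3.97%).

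The 6 genes of the rule are described first, as the values that chose the cells. Their summed UMIs per NK-gated cell fell steeply, with 1312 cells at 1 UMI, 374 at 2, 136 at 3 and 72 at 4. Among interferon-response cells the median was 9 UMIs and the highest 99, with 3237 UMIs in all. The 10 cells with the most held 17.0% of these UMIs and the 50 cells with the most 47.2%, so the signal was spread over many cells but unevenly.

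**Figure D2:**
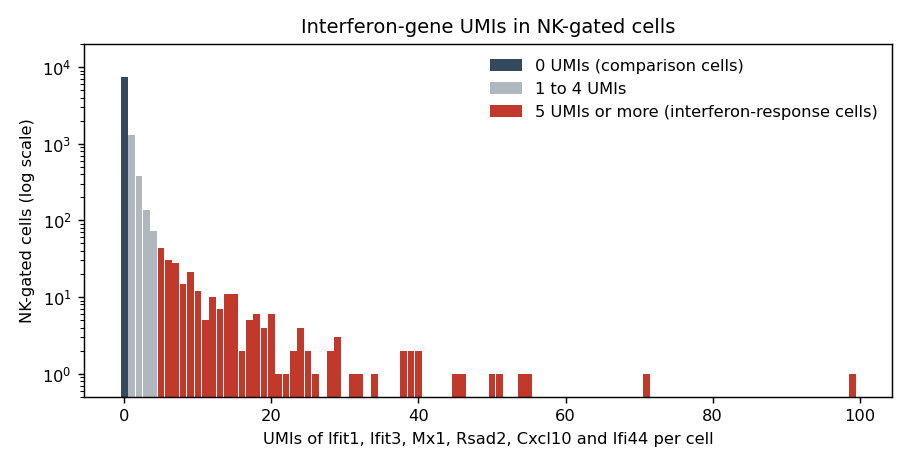
Number of NK-gated cells (vertical axis, log scale) by their summed UMIs of Ifit1, Ifit3, Mx1, Rsad2, Cxcl10 and Ifi44 (horizontal axis). The 7362 comparison cells stand at 0, 1894 cells at 1 to 4 UMIs (grey) and the 250 interferon-response cells at 5 or more (red), with no gap in the counts at the limit of 5 and a tail that reaches 99 UMIs.

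Ifit1 and Ifit3 encode proteins with tetratricopeptide repeats that hold back viral RNA. Ifit1 gave 370 UMIs (247 CPM) in 128 of the 250 cells and Ifit3 342 UMIs (228 CPM) in 132 cells. Mx1, a dynamin-like GTPase that traps viral particles, gave 342 UMIs (228 CPM) in 139 cells. Rsad2, which encodes viperin, an enzyme that makes a chain-terminating nucleotide, gave 463 UMIs (309 CPM) in 129 cells. Ifi44, a cytoplasmic protein, gave 466 UMIs (311 CPM) in 144 cells. Each of these genes was thus seen in a little over 50% of the cells, from 51.2% for Ifit1 to 57.6% for Ifi44.

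Cxcl10, a chemokine that draws cells with the receptor CXCR3, was distributed differently. It gave 1254 UMIs (836 CPM) in 136 cells, with a median of 5 UMIs in cells that had any, against 2 or 3 for the other genes, and 67 UMIs in 1 cell. In 21 cells Cxcl10 was the sole gene of the rule, whereas Ifi44 was alone in 4 cells, Rsad2 in 6, Mx1 in 1 and Ifit1 and Ifit3 in none. These 21 cells were deep, with a median of 12359 UMIs, and held 18.03 CPM of Isg15 against 330 CPM in the other 229 cells. Their antiviral effectors summed to 4330 CPM, close to the 3620 CPM of the comparison cells, while the other 229 cells had 11335 CPM.

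The number of different rule genes in a cell sorted the cells in the same way. A single gene was seen in 32 cells, 2 genes in 47, 3 in 70, 4 in 48, 5 in 38 and all 6 in 15 cells. In the 171 cells with 3 or more genes the antiviral effectors outside the rule summed to 13023 CPM, in the 47 cells with 2 genes to 7805 CPM and in the 32 cells with 1 gene to 4635 CPM. The cells with 1 gene had a median of 9709 UMIs and those with 3 or more 3207. Of the cells with 1 gene 31.3% carried an other-lineage load, against 42.6% with 2 genes and 24.6% with 3 or more. The 129 load-free cells with 3 or more genes had 12018 CPM of effectors.

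Pairs of rule genes in the same cell were most often Mx1 with Ifit3 (87 cells), Mx1 with Ifi44 (86 cells) and Ifit3 with Ifit1 or Ifi44 (85 cells each). Rsad2 with Cxcl10 was the least frequent pair (66 cells). When each gene was left out and cells were chosen by 5 UMIs of the other 5, the gene left out had 19.9 times the CPM of cells with 0 UMIs of those 5 for Ifi44, 20.2 times for Mx1, 44.7 times for Rsad2, 64.0 times for Ifit3, 70.7 times for Ifit1 and 84.3 times for Cxcl10. In each of these choices 41.2% to 47.1% of the chosen cells had a UMI of the gene left out.

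The limit of 5 UMIs fell in a gradual series. Just inside it, the 74 cells with 5 or 6 UMIs had 108 CPM of Isg15 and 7523 CPM of antiviral effectors. Just outside it, the 208 cells with 3 or 4 UMIs had 60.8 CPM of Isg15 and 6646 CPM of effectors. Their other-lineage load was also alike, at 27.0% and 24.0% of cells.

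Over all genes outside the rule, 6646 had at least 30 UMIs seen in, or expected from the comparison cells for, the interferon-response cells. Of these, 569 were at least 2-fold higher by CPM (8.56%) and 56 at least 2-fold lower (0.843%), and the median ratio was 1.03. Without cells with a load, 303 of 5388 genes were at least 2-fold higher (5.62%) and 50 lower (0.928%), of which 240 and 37 were also called with all cells. Genes reaching 30 UMIs only in the interferon-response cells, 789 in number, had to be higher, so the gene lists are also counted over the 5857 genes with 30 UMIs expected from the comparison cells, of which 191 were at least 2-fold higher (3.26%) and 56 lower (0.956%). These shares are the background for each group.

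The listed antiviral effectors were higher throughout, whereas Ifitm1, left out of the list, was lower, as given below. All 39 that had enough UMIs lay above 1, 35 of them at least 2-fold, with a median ratio of 5.62, and without cells with a load 31 of 35 were at least 2-fold higher with a median of 5.67. Among the 22 with 30 UMIs expected from the comparison cells, 18 were at least 2-fold higher and the median was 3.00. The rest, among them Isg15, Mx2, Ifit2, Oasl1, Oasl2 and Cmpk2, reached the minimum in the interferon-response cells only, so they had to be higher.

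Isg15, a ubiquitin-like protein that is both attached to other proteins and secreted, had 272 CPM in the interferon-response cells (246 to 300) and 8.02 CPM in the comparison cells, a ratio of 33.9 (29.6 to 39.0). It was seen in 139 of the 250 cells. The ratio was 30.2 without cells with a load and 21.6 among cells with at least 3 UMIs of Ncr1, Klrb1c and Eomes. After each cell of 2000 UMIs or more was thinned to 2000, which left 204 interferon-response and 5987 comparison cells and dropped 46 and 1375, Isg15 was found in 38.7% (32.0 to 45.8%) against 1.94% (1.60 to 2.32%). At full depth the shares were 55.6% and 5.12%. The interferon-response cells had the higher share before and after thinning, although they were the shallower group.

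Mx2, the relative of Mx1, had 59.4 against 0.958 CPM (ratio 62.0, 43.5 to 89.3), and Ifit2 118 against 4.02 CPM (ratio 29.4, 23.9 to 36.02). Both held without cells with a load, at 79.7 and 28.8. Ifit1bl1 and Ifit3b, close relatives of Ifit1 and Ifit3 among which reads may be shared, had ratios of 36.2 and 48.8. The oligoadenylate synthetase family, whose active members make the signal that turns on RNA decay, gave 35.3 for Oasl2, 14.2 for Oasl1, 13.3 for Oas2 and 6.33 for Oas1a. Without cells with a load Oas2 fell to 5 UMIs and a ratio of 2.63, and Oasl2 had 22.7. Cmpk2, the neighbour of Rsad2 that supplies its nucleotide, had 62.0 against 2.63 CPM (ratio 23.6, 17.95 to 30.9) and 27.7 without cells with a load.

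Other effectors had a wide range of ratios. Ly6e, a membrane protein that restricts entry of viruses, had 2359 against 1365 CPM (ratio 1.73, 1.67 to 1.79), Shisa5 1143 against 702 CPM and Sp100, a nuclear body protein, 558 against 179 CPM. Trim30a, a ubiquitin ligase family member, had 454 against 74.0 CPM (ratio 6.13, 5.64 to 6.65) in 193 of the 250 cells. Rtp4 had 13.8, Xaf1 5.14 and Bst2, the tether that holds virions at the cell surface, 4.44 times the CPM of comparison cells. Eif2ak2, the RNA-activated kinase PKR that stops translation, had a ratio of 3.14 and Adar, which edits double-stranded RNA, 2.42. Slfn1 (41.6) and Ifi27l2a (12) were among the effectors most affected by cells with a load, with 12.3 and 6.38 without them. Ifitm3, a membrane protein that hinders viral fusion, had a ratio of 2.40 with all cells and 1.06 without those with a load, and its relative Ifitm1, outside the list, had 0.380 and 0.350.

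Spread within the group was wide. Summed effector CPM per interferon-response cell had a median of 11981 (1219 to 47351) against 3854 (0 to 40711) per comparison cell, so the ranges overlapped. Of the interferon-response cells, 158 (63.2%, 56.9 to 69.2%) lay above 9279 CPM, the 95th percentile of the comparison cells, and 114 of the 178 without a load did (64.0%). Among the 32 cells with 1 rule gene 5 lay above it (15.6%, 5.28 to 32.8%), and among the 171 with 3 or more 132 did (77.2%, 70.2 to 83.3%). The median number of effector genes detected was 18 in interferon-response and 8 in comparison cells.

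Sensors of foreign RNA and DNA were higher as a group. Of 15 with enough UMIs, 13 were at least 2-fold higher, with a median ratio of 7.02 and 7.89 without cells with a load. Of the 8 with 30 UMIs expected from the comparison cells, 6 were at least 2-fold higher, and their ratios ran from 1.16 for Aim2 to 8.52 for Ifi206. The RNA helicases Ifih1, which encodes MDA5, and Ddx58, which encodes RIG-I, had ratios of 8.71 (7.03 to 10.7) and 3.56 (3.14 to 4.03), and their relative Dhx58 7.02. Ifih1 and Dhx58 reached the minimum in the interferon-response cells only, so they had to be higher. Zbp1, a sensor of left-handed nucleic acid that can start cell death, had 159 against 23.4 CPM (ratio 6.80) and was found in 31.9% against 5.68% of thinned cells.

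The Ifi200 family are DNA-binding proteins encoded by a cluster of near-identical genes among which reads may be split. The listed genes named Ifi203 to Ifi213 with enough UMIs were each higher, from 6.62 for Ifi209 to 38.5 for Ifi204. Of these, Ifi203, Ifi206 and Ifi209 alone had 30 UMIs expected, and the others had to be higher to reach the minimum. Ifi214, outside the list, had 6.44. Ifi203 had the most UMIs of the family, 498 against 70.9 CPM (ratio 7.02, 6.48 to 7.59), in 184 cells. Ifi204 had 113 against 2.93 CPM, and 27.4 as its ratio without cells with a load. The DNA sensors Cgas and Aim2 stood apart from these Ifi genes, so not every DNA sensor was as high. Cgas had 2.27 (1.82 to 2.82) and Aim2, which assembles an inflammasome, 1.16 (0.960 to 1.38), so its interval held 1.

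**Figure D3:**
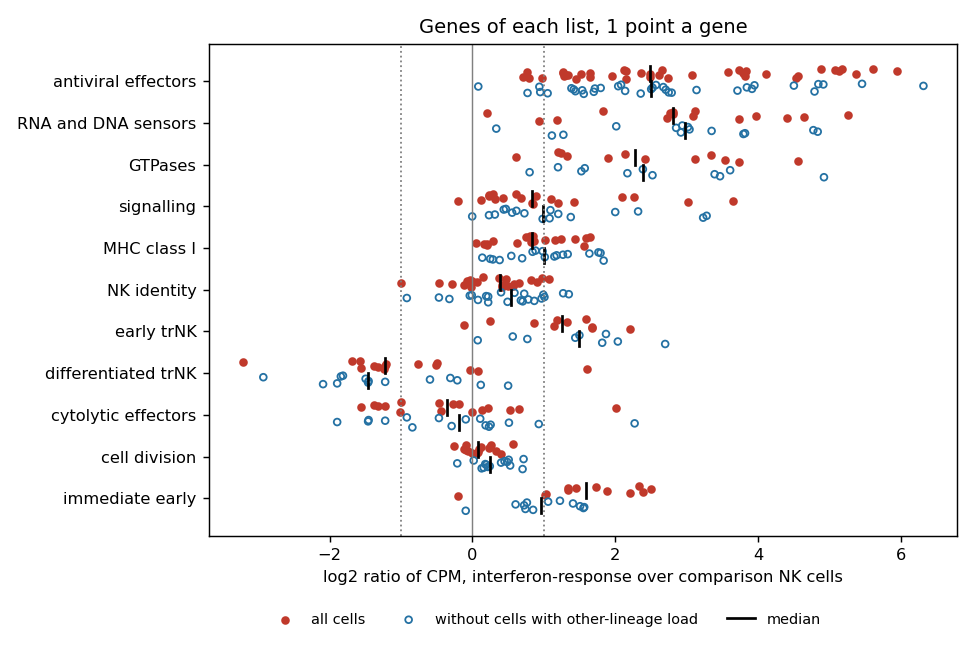
log2 of the CPM ratio of interferon-response over comparison cells (horizontal axis) for each gene of 11 lists with enough UMIs (rows). Filled red points are all cells, open blue points cells without other-lineage load, black bars medians and dotted lines 2-fold. Antiviral effectors, sensors and GTPases lie right of 0, with medians of 5.62, 7.02 and 4.87 as ratios, and most genes of differentiated trNK lie left of it, with a median of 0.427.

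Interferon signalling genes were divided between higher and little-changed members. Of 19 with enough UMIs, 7 were at least 2-fold higher and none lower, with a median of 1.79 and 1.98 without cells with a load. Of the 16 with 30 UMIs expected, 5 were at least 2-fold higher and the median was 1.70. Irf7, Ifnar2 and Socs3 reached the minimum in the interferon-response cells only and had to be higher. Irf7, the factor that amplifies type I interferon production, had 199 against 15.9 CPM (ratio 12.6, 10.99 to 14.4) and was found in 43.1% of thinned interferon-response and 3.99% of comparison cells. Usp18, which removes Isg15 from proteins and dampens the receptor, had 205 against 25.4 CPM (ratio 8.09, 7.13 to 9.16). The factors Stat2 and Irf9 followed, with 4.81 (4.17 to 5.52) and 2.67 (2.30 to 3.09). Irf1, a factor induced by interferon gamma, had 2.14 (1.87 to 2.45).

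The kinases and receptors upstream differed by less than 2-fold with all cells. Jak2 had 1.86 (1.54 to 2.22) and 2.13 without cells with a load. Jak1 had 473 against 404 CPM (ratio 1.17, 1.09 to 1.26), Tyk2 1.18 (0.870 to 1.56), Ifngr1 1.23 (1.11 to 1.35) and Ifnar2 1.53 (1.08 to 2.12). Irf8, a factor of NK cell and myeloid development, had 828 against 950 CPM (ratio 0.872). The feedback inhibitors Socs1 and Socs3 had 1.79 and 2.30. Stat3 and Stat4, the factors of interleukin-21 and interleukin-12 signalling among others, had 1.35 and 1.60. Irf5 (2.32) and Ifngr2 (14.1, 0 UMIs left without cells with a load) were below 30 UMIs.

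Of the 5 interferon genes examined, Ifng alone had UMIs in the interferon-response cells. It gave 133 UMIs in 49 of the 250 cells, 88.7 against 28.4 CPM (ratio 3.12, 2.59 to 3.73), and 3.62 without cells with a load. In thinned cells it was seen in 13.2% (8.91 to 18.7%) against 5.04%. No UMI of Ifnb1, Ifna2, Ifnk or Ifnl2 was found in the interferon-response cells, and a count of 0 in 250 cells allows a share of up to 1.2% of cells with a UMI, taken as 3 counts. The comparison cells held 2 UMIs of Ifnb1 and 1 of Ifnk. The other type I genes were not analysed here.

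The interferon-inducible GTPases, guanylate-binding proteins and immunity-related GTPases that attack the vacuoles of intracellular microbes, were higher in 12 of 12 and at least 2-fold in 11, with a median of 4.87 and 5.23 without cells with a load. Of the 6 with 30 UMIs expected, 5 were at least 2-fold higher, and their ratios ran from 1.53 for Gbp8 to 5.33 for Irgm1. Tgtp1, Tgtp2, Irgm2, Gbp5, Gbp6 and Igtp reached the minimum in the interferon-response cells only, so they had to be higher. Tgtp1 and Tgtp2, near-identical neighbours, had 23.7 and 13.4, Irgm2 11.6, Gbp6 10.1 and Igtp, whose promoter motif is shown above, 8.72 (7.22 to 10.5). Gbp7 had the most UMIs of the group, 309 against 123 CPM (ratio 2.51, 2.28 to 2.76). Igtp was found in 20.6% of thinned interferon-response cells and 3.21% of comparison cells. Gbp8, at 1.53 (1.24 to 1.87), was the member below 2-fold.

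MHC class I presentation, which displays peptides to T cells and engages the inhibitory receptors of NK cells, had ratios above 1 in all 18 genes and at least 2 in 7, with a median of 1.79 and 2.00 without cells with a load. All 18 had 30 UMIs expected from the comparison cells. B2m, the light chain, had 6278 against 3599 CPM (ratio 1.74, 1.71 to 1.78), H2-K1 2785 against 1546 CPM and H2-D1 3571 against 2113 CPM. Of the non-classical heavy chains, H2-Q4 had a ratio of 3.15 (2.85 to 3.47), H2-Q6 3.01, H2-Q7 2.70, H2-T22 2.36 and H2-T23 2.24, though the reads of these similar genes may be split. Nlrc5, the activator of class I genes, had 2.96 (2.45 to 3.56) and the peptide transporter Tap1 2.03. The immunoproteasome subunit Psmb8 had 1.04 (0.967 to 1.11) and Psmb10 1.12 (0.991 to 1.26), and both intervals held 1.

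Chemokines separated by cell content. Of 10 with enough UMIs, 9 were at least 2-fold higher with a median of 8.71, but without cells with a load 4 had enough UMIs and 2 were at least 2-fold higher. With 30 UMIs expected, 3 of 4 were at least 2-fold higher with all cells. These 4, Xcl1, Ccl3, Ccl4 and Ccl5, had ratios of 1.82 to 3.19. The others reached the minimum in the interferon-response cells only and had to be higher, which raised the median of 8.71. Cxcl1, Ccl2, Ccl7, Ccl12 and Ccl9, chemokines that myeloid and stromal cells make, had ratios of 10.2 to 173 with all cells, and between 1 and 11 UMIs each were left without those with a load. In Cxcl1 1 cell held 41.7% of the UMIs and in Ccl7 51.8%. The chemokines that NK cells make are Xcl1, Ccl3, Ccl4 and Ccl5. Xcl1, which attracts cross-presenting dendritic cells, had 1204 against 377 CPM (ratio 3.19, 3.04 to 3.35) and 4.10 without cells with a load. Ccl3 had 2.64 with all cells and 1.58 without them, Ccl4 2.62 and 2.64, and Ccl5 1.82 in both. With comparison cells weighted to the depths of the interferon-response cells, Xcl1 had 2.47, Ccl3 1.745, Ccl4 1.753 and Ccl5 1.11. Cxcl9, the relative of Cxcl10 that interferon gamma induces, had 0 UMIs, and Cxcl11 had 7.

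Features of differentiated trNK cells were lower. The list joins genes that the study followed along trNK differentiation (Tnfrsf9, Cd55, Klrg1, Il2ra and Prdm1) with other genes. Some of these, among them Ctsg, Scin and Epas1, were taken from earlier results of these data, so the list is not independent of them. The granzymes that the study's text names along this course are Gzma and Gzmb, whereas the list holds Gzmd, Gzme, Gzmf and Gzmg. Of 15 with enough UMIs, 9 were at least 2-fold lower and 1 higher, with a median ratio of 0.427 and 0.364 without cells with a load. All 9 had 30 UMIs expected from the comparison cells. Of the study's genes named here, Cd55 alone was at least 2-fold lower, while Klrg1 had 0.591 and Il2ra 0.704. Ctsg, a serine protease, had 9.34 against 86.4 CPM (ratio 0.108, 0.0590 to 0.181), from 14 UMIs in 7 cells, and was found in 0.980% of thinned interferon-response cells against 7.52%. Scin, an actin-severing protein, had 0.312 (0.249 to 0.386) and Epas1, a hypoxia-inducible factor, 0.334 (0.252 to 0.436). Scin was found in 4.90% (2.38 to 8.83%) against 20.4% of thinned cells.

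The granzymes Gzmd, Gzme, Gzmf and Gzmg, close neighbours whose reads may be split, were lower too. Gzmg had 1278 against 3768 CPM (0.339, 0.324 to 0.355), Gzmd 4135 against 10746 CPM (0.385), Gzmf 0.400 and Gzme 0.427. Gzmd UMIs were nonetheless found in 216 of 250 cells (86.4%, against 87.7% of comparison cells) and Gzmf UMIs in 197 (78.8% against 85.4%). The part of free RNA in these shares was not tested. Cd55, a complement regulator that marks differentiation here, had 0.431 (0.384 to 0.482), while Tnfrsf9, which encodes 4-1BB, had 0.711 and Prdm1 0.979. Hmox1, the single gene of the list at 2-fold higher, had 3.04 with all cells and 0.784 on 7 UMIs without cells with a load.

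The cytolytic machinery was split between granule proteins. Of 16 genes, 6 were at least 2-fold lower and 1 higher, with a median of 0.783 and 0.878 without cells with a load, where 4 were lower. The 4 were Gzmd, Gzme, Gzmf and Gzmg, which were already counted in the list of differentiated trNK genes. With all cells Prf1 and Spp1 were added to them, so the 2 lists are not separate results. Prf1, the pore-forming perforin, had 786 against 1578 CPM (0.498, 0.470 to 0.527) and Spp1, osteopontin, 0.497. These were 0.529 and 0.559 without cells with a load. Gzma had 0.721 and Gzmb 0.881, and Gzmb was 1.08 without cells with a load. Perforin was found in 47.5% of thinned interferon-response cells against 75.3%, and Gzmb in 89.7% against 95.9%. The exception on the high side was Tnfsf10, the death ligand TRAIL that interferons induce, with 115 against 28.5 CPM (4.04, 3.43 to 4.73) and 4.83 without cells with a load.

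Early trNK genes were divided. Of this list the study follows Tcf7, Tox, Gata3, Il21r, Il10rb and Cd27 along the same course, while Itga1, Xcl1, Ltb, Il7r and Cxcr6 were added here. Itga1, Ltb, Il7r and Cxcr6 also stand in the list of type 1 innate lymphoid cells. The study sorted trNK cells as negative for CXCR6, so Cxcr6 does not stand for an early trNK state here. Of 10 with enough UMIs, 7 were at least 2-fold higher, with a median of 2.40 and 2.83 without cells with a load, and of the 7 with 30 UMIs expected 4 were. When the comparison cells were weighted to the depths of the interferon-response cells, 3 of the 10 were at least 2-fold higher and the median was 1.83. The 3 were Xcl1 (2.47) and Cxcr6 (2.74), both added here, and Tcf7 (2.12) of the study's genes. With the same weights the differentiated trNK genes had 9 lower and a median of 0.475. Tcf7, the factor of early and self-renewing lymphocytes, had 88.0 against 29.3 CPM (3.01, 2.50 to 3.59), and Il21r, the interleukin-21 receptor, 57.4 against 22.8 CPM (2.52, 2.00 to 3.13). Tox, a factor of NK development, had 2.28, Ltb, lymphotoxin beta, 3.18, and Cxcr6 4.599 from 47 UMIs in 20 cells, though Ltb and Cxcr6 reached the minimum in the interferon-response cells only. Itga1, the integrin CD49a of tissue-resident cells, had 239 against 260 CPM (0.918, 0.825 to 1.02), and its interval held 1. Tcf7 was found in 18.1% (13.1 to 24.1%) of thinned interferon-response cells against 6.31%, and in 22.4% against 6.35% without cells with a load.

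Genes of conventional NK cells of the circulation did not form such a group. Of 10, 4 were at least 2-fold higher with all cells, 2 of the 7 with 30 UMIs expected, and none of 9 without those with a load, where the median was 1.27. Zeb2 went from 3.88 to 1.71, Klf2 from 2.10 to 1.14 and Ly6c2 from 4.25 to 1.15. Itga2, the integrin CD49b of conventional NK cells, had 26.7 against 19.3 CPM (1.38, 0.982 to 1.897). Of the genes of type 1 innate lymphoid cells, Itga1 and Tnfsf10 alone had 30 UMIs expected, and Tnfsf10 was at least 2-fold higher. The 4 others with enough UMIs reached the minimum in the interferon-response cells only, so they had to be higher. Tmem176b had 7.08 and Tmem176a 4.19, with 3.12 and 1.60 without cells with a load, and Il7r had 3 UMIs.

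Other state genes followed 2 patterns. None of 16 cell division genes was 2-fold different, with a median of 1.06, and Mki67 was found in 11.8% of thinned interferon-response and 10.9% of comparison cells. A list of 12 genes joined immediate early genes, the first to answer a stimulus and also the handling of tissue, with 3 heat shock genes. Of the 12, 11 were at least 2-fold higher, with a median of 3.03, and 6 without cells with a load, with a median of 1.95. The heat shock genes Hspa1a, Hspa1b and Hsph1 had 2.04, 2.02 and 0.870 with all cells. Egr1 went from 5.68 to 1.52, Fos from 5.03 to 2.34 and Junb from 2.73 to 2.66. Of 9 checkpoint and activation genes 3 were at least 2-fold higher and 1 lower, and of 9 cell death genes 2 were higher, with medians of 1.71 and 1.52. With 30 UMIs expected these were 2 higher and 1 lower of 8, and 1 higher of 8. Cd69, an early activation marker that interferon also raises, had 2.35 (2.13 to 2.59) and 2.97, and Cd274, which encodes PD-L1, 2.77 (2.29 to 3.32) and 3.21. Havcr2, the checkpoint receptor TIM-3, had 0.427 and 0.347. Ly6a, which reached the minimum in the interferon-response cells only, had 18.5 (16.5 to 20.9) with all cells and 4.47 without those with a load. Casp4, an inflammatory caspase, had 3.57 and 3.70.

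The number of rule UMIs per cell was followed in load-free cells from 0 to 20 or more. Antiviral effectors, none of them in the rule, summed to 3593 CPM at 0 UMIs, 4439 at 1, 5386 at 2, 6514 at 3 or 4, 7230 at 5 or 6, 10406 at 7 to 9, 10682 at 10 to 19 and 13501 at 20 or more. Isg15 went from 7.85 CPM at 0 to 517 CPM at 20 or more. Genes of MHC class I went from 10024 CPM at 0 to 20630 CPM at 7 to 9 and 20053 CPM at 20 or more. In load-free cells the effector value was thus higher at each step, though that at 10 to 19 UMIs lay inside the interval at 7 to 9 (10003 to 10821 CPM). With all cells effectors had 11003 CPM at 7 to 9 and 10919 CPM at 10 to 19. MHC class I genes had 19528 and 16410 CPM at the same steps with all cells.

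Genes of differentiated trNK ran the other way over the lower steps, from 32085 CPM at 0 to 7605 CPM at 7 to 9, and then stood at 14775 and 14851 CPM in the upper 2 steps. Median depth also differed along the series, from 5860 UMIs per cell at 0 to 2834 at 20 or more, and the highest 4 steps hold 54, 47, 46 and 31 cells. The share of cells with a load that had been left out was 4.47% at 0, 7.93% at 1, 10.4% at 2, 24.0% at 3 or 4, 27.0% at 5 or 6, 26.6% at 7 to 9, 37.0% at 10 to 19 and 20.5% at 20 or more.

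**Figure D4:**
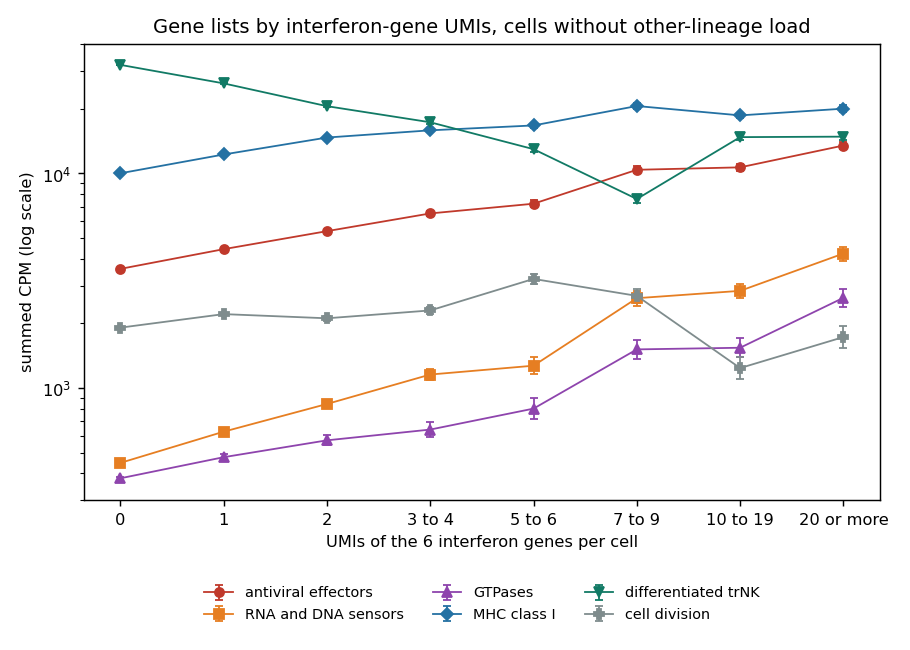
Summed CPM (vertical axis, log scale) of 6 gene lists in load-free NK-gated cells grouped by UMIs of the 6 rule genes (horizontal axis). Points carry Poisson 95% intervals: antiviral effectors climb from 3593 to 13501 CPM, differentiated trNK genes drop from 32085 to 7605 CPM at 7 to 9 UMIs and stand at 14851 CPM at the top step.

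Where among the NK cells the interferon-response cells lay was read with gates on genes outside the rule, set on cells thinned to 2000 UMIs so that depth did not decide a gate. Among the 7752 NK-gated cells of that depth, 204 were interferon-response cells (2.63%). They were 2.23% (1.70 to 2.87%) of cells with Itga1 and no Itga2, a pattern of trNK cells and type 1 innate lymphoid cells alike, 3.11% (1.35 to 6.04%) of cells with Itga2 and no Itga1, the conventional NK pattern, and 2.80% (2.35 to 3.31%) of cells with neither. These intervals overlap. Without cells with a load the shares were 2.04%, 2.07% and 1.94%.

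Gates on trNK genes divided the shares. Scin, Epas1 and Ctsg were already lower by ratio in the interferon-response cells, and Tcf7 and Il21r higher. These shares therefore restate those ratios and are no separate evidence. Interferon-response cells were 0.733% (0.419 to 1.19%) of cells with Scin, Epas1 or Ctsg and 3.38% (2.92 to 3.89%) of cells with none. They were 5.95% (4.601 to 7.55%) of cells with Tcf7 or Il21r and 2.11% (1.78 to 2.48%) of cells with neither. Without cells with a load the values were 0.487% against 2.57% and 5.29% against 1.46%. Median depth before thinning was 9330 UMIs with Scin, Epas1 or Ctsg and 6118 without, and 4062 with Tcf7 or Il21r and 7588 without. The rule was applied to all UMIs of a cell, so its limit of 5 asked a higher level of shallow cells. When 2 UMIs of the 6 genes were asked of each cell thinned to 2000 instead, the shares were 0.733% against 5.60% and 9.92% against 3.33%.

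Granzyme, division and innate lymphoid genes were used as gates too. Cells without any UMI of Gzmd, Gzme, Gzmf and Gzmg held 4.81% (3.00 to 7.25%) and cells with one 2.50% (2.16 to 2.89%), with intervals that do not overlap, and 3.78% (2.13 to 6.16%) against 1.87% (1.56 to 2.22%) without cells with a load, where they do. Dividing cells, with Mki67 or Top2a, held 2.36% (1.73 to 3.14%) and the rest 2.72% (2.32 to 3.17%). Cells with Cxcr6 or Tmem176b held 10.8% (7.78 to 14.6%) against 2.24%, and 7.61% (4.71 to 11.5%) against 1.77% without cells with a load, at median depths of 3354 and 7237 UMIs with all cells. This gate held 351 cells, of which 263 were free of a load, against 7401 and 6970 cells outside it. Both genes were higher by ratio in the interferon-response cells, while Itga1 (0.918) and Il7r (0.911 on 3 UMIs) of the same list were not. The gate is thus not shown to mark innate lymphoid cells.

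**Figure D5:**
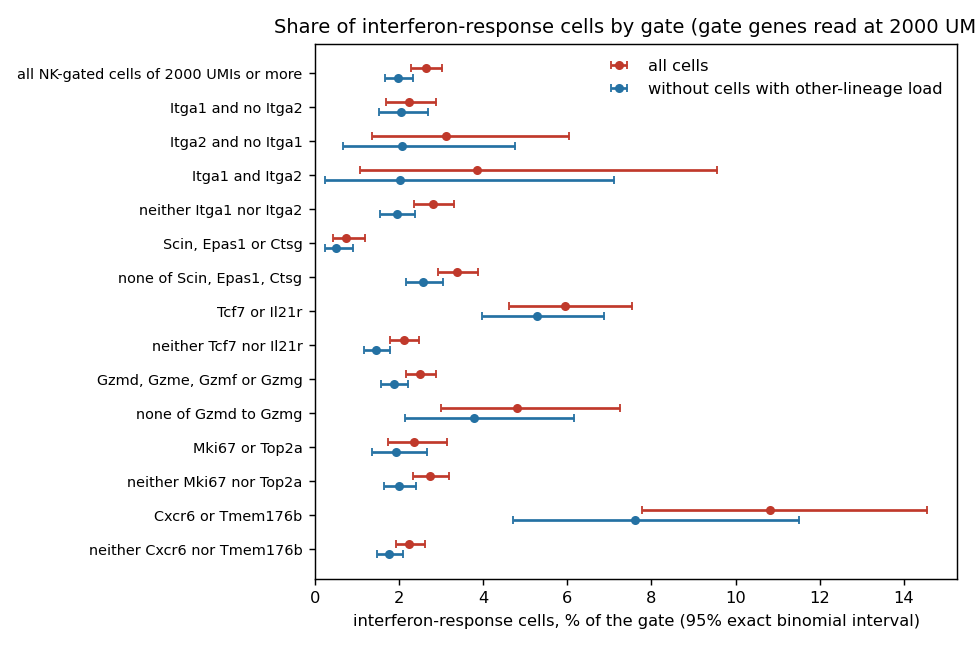
Interferon-response cells as a share of each gate (%, horizontal axis), with exact binomial 95% intervals, for all cells (red) and cells without other-lineage load (blue). The lowest share is in cells with Scin, Epas1 or Ctsg (0.733%) and the highest in cells with Cxcr6 or Tmem176b (10.8%), against 2.63% over all NK-gated cells of at least 2000 UMIs. The genes of both gates already differed by ratio between interferon-response and comparison cells.

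The interferon program was found within the gates as well as across them. In cells with Tcf7 or Il21r the antiviral effectors summed to 13794 CPM in interferon-response and 5891 CPM in comparison cells (ratio 2.34, 2.22 to 2.47). In cells with neither they summed to 13770 and 3716 CPM (3.71, 3.59 to 3.83). In the 16 interferon-response cells with Scin, Epas1 or Ctsg the ratio was 3.46 (3.08 to 3.88), and in dividing cells 2.39 (2.22 to 2.56). The 4 cells with both Itga1 and Itga2 had 0.970 (0.710 to 1.30). Comparison cells with Tcf7 or Il21r thus already had a higher effector level than those with neither.

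Cells outside the NK gate, and cells gated by genes of other lineages, carried the same 6 genes. In all, 834 cells under the mitochondrial limit had at least 5 UMIs of them, of which 405 lacked an NK UMI, and of those with an NK UMI 156 had more than 2 C1q UMIs, 15 had Cd3e and 17 Cd79a. At least 5 UMIs were found in 342 of 1165 macrophages, gated by 10 C1q UMIs (29.4%, 26.8 to 32.1%), 40 of 212 stromal cells (18.9%, 13.8 to 24.8%) and 70 of 88 erythroid cells (79.6%, 69.6 to 87.4%). Stromal cells were gated by 20 UMIs of Col1a1, Col1a2, Col3a1 and Dcn, and erythroid cells by a globin share of 20%. In both gates 30.7% of cells had an NK UMI, so they can share cells with the NK gate and the interferon-response cells. They were found in 18 of 249 B cells (7.23%, 4.34 to 11.2%) and 11 of 208 T cells (5.29%, 2.67 to 9.27%), at median depths of 1803 and 1946 UMIs against 5680 in the NK gate. In cells thinned to 2000 UMIs, at least 2 UMIs were found in 33.7% of B cells (24.6 to 43.8%), 20.0% of T cells (12.5 to 29.5%) and 4.23% of the NK gate (3.79 to 4.70%). Of 9 neutrophils, gated by 10 UMIs of S100a8 and S100a9, 7 had at least 5 UMIs at full depth, and 33.3% had an NK UMI. The summed level of the 6 genes was 88.0 CPM in the NK gate, 545 in T cells, 672 in B cells, 676 in stromal cells, 1003 in macrophages, 4154 in neutrophils and 4383 in erythroid cells.

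The makeup of the 6 genes differed between these cells. Cxcl10 made up 308 of the 1003 CPM in macrophages and 444 of 676 in stromal cells, but 4.71 of 4383 CPM in erythroid cells. In the interferon-response cells with globin load, the effectors summed to 4426 CPM, Isg15 to 580 CPM and Ifit2 to 0 CPM, while those with macrophage load had 14622, 349 and 228 CPM in the same order. Cxcl10 stood at 11.6 CPM in T cells and 0 CPM in the 9 neutrophils, against 24.7 CPM in the whole NK gate and 49.7 CPM in B cells. Its level in the interferon-response cells is no measure here, since Cxcl10 helped to choose them. The part of free RNA was not tested.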

How the data were processed

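The authors sorted, tagged, mixed and captured the cells and counted UMIs with the BD Rhapsody WTA pipeline 1.9.1 on GRCm39. The deposited values are counts, whole UMI numbers per cell and gene without normalization, in 2 files of the same cells that were joined by cell number. Bulk libraries of the series were not used here.

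In Python 3.11.15 with numpy 2.4.6 and scipy 1.17.1, UMIs were summed over the cells of a group and given as CPM with exact Poisson intervals, as ratios with exact conditional intervals, or as shares of cells with exact binomial intervals. All cover counting error only, since cells without a sample tag form 1 pooled sample with no replicates. A gene with at least 30 UMIs seen or expected was called at a CPM ratio of at least 2 or at most 0.5. Shares of cells with a UMI, where called thinned, and effector levels within gates used cells thinned to 2000 UMIs. No doublet caller was run, and cells above the 95th percentile of UMIs (18906) were left out as an alternative. The calls were tested on simulated pooled counts with counting error only. The simulation held no differences between cells, no choice of cells by UMIs and no other-lineage load, so it does not speak to those.

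The cells and gene lists were chosen with earlier results of these data known. Named genes are those of the lists, and the 25 largest and 15 smallest CPM ratios in genes with at least 30 UMIs, where for the largest no cell holds over 20% of the UMIs and at least 10% of the cells have 1. Some of these are not reported here. Alternatives changed the mitochondrial limit, the UMI limits, the lineage gate, the genes of the sum, the comparison cells, the depth and the averaging. The load of other-lineage genes was added after the data were seen.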

Additional observations from a re-analysis of the deposited data

How the results depend on the processing

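No paired analysis was possible because the cells carry no sample tag and no test was made. The share of interferon-response cells among NK-gated cells, 2.63%, moved beyond its counting interval to 4.82% with 3 UMIs of the 6 genes asked, 1.18% with 10, 3.19% with more than 200 and fewer than 2500 UMIs per cell, 2.04% with 3 NK UMIs, 1.68% with 0 UMIs of every macrophage gene, 1.16% in cells thinned to 2000 UMIs and 2.00% without cells with an other-lineage load. With Ifit3, Mx1, Rsad2, Cxcl10 or Ifi44 left out of the sum, which leaves fewer UMIs to count, it was 2.29%, 2.21%, 2.24%, 2.04% and 2.05%. The other 4 alternatives gave 2.37 to 2.70%.

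The count of genes at least 2-fold higher, 569 of 6646 tested, became 124 of 976 with 200 to 2500 UMIs per cell, 335 of 5881 with 3 NK UMIs, 216 of 1592 with 0 macrophage UMIs, 208 of 1102 after thinning, 1186 of 9691 with genes of 10 UMIs or more and 303 of 5388 without cells with a load, and the count of lower genes, 56, became 37, 36, 103, 103 and 157 in the first 5 of these, 116 without cells above the 95th percentile of UMIs and 176 with a mean of single-cell CPM. The number of genes tested changes by construction with the cells, UMIs or minimum, and the cause of other shifts was not tested. The count of interferon-stimulated genes (effectors, sensors, signalling and GTPases) at least 2-fold higher, 66 of 85 tested, was 45 of 54 to 70 of 89 in 20 alternatives.

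Without cells with a load, 13 single genes turned from higher to lower: Cxcl2 (0.748), Hmox1 (0.784), Cx3cr1 (0.598), Cd14 (0.897), Dcn (0.399), Hba-a1 (0.594) and Hbb-bs (0.976), and S100a8, S100a9, Col3a1, Acta2, Hba-a2 and Alas2, each at 0 UMIs. The removal fixed this for Cd14, Dcn, Col3a1, Hba-a1, Hba-a2, Hbb-bs, S100a8 and S100a9, which define the load. Of the other single genes, 116 moved by less than their counting interval and 133 by more. When the comparison cells were weighted by depth, 152 single genes moved by less than their counting interval and 110 by more. Among the genes named above, the 2-fold call ended for Il21r (1.95), Tox (1.71), Ltb (1.998), Klrc1 (1.48), Klf2 (1.38), Irf1 (1.85), Socs3 (1.80), Tap1 (1.84), H2-T23 (1.97), Cd27 (1.58), Ccl3 (1.745), Ccl4 (1.75), Itgax (1.495), Hspa1a (1.72), Hspa1b (1.71), Prf1 (0.525) and Spp1 (0.540).

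Depth limits what can be seen: genes under 30 UMIs were not called, and ratios of genes at few UMIs in the comparison cells have wide intervals. All intervals cover counting error in 1 pooled sample, and differences between mice, or between virgin and gd8.5 uterus, could not be measured.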

Other observations

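Genes outside the lists were also among those with the largest CPM ratios of interferon-response over comparison cells, and not all of them are reported here. Ube2l6, the enzyme that conjugates Isg15 to proteins, had 165 against 2.27 CPM (ratio 72.8, 58.3 to 91.2) and 11.2 (6.70 to 17.96) without cells with an other-lineage load. Ms4a4c had 23.1 (19.1 to 27.9) and 13.4 (10.0 to 17.7), and Gm6545, a predicted gene, 29.5 and 24.5. Slfn4, Gda, Tgfbi, Ms4a6c and Mpeg1, the pore-forming protein of macrophages, had 21.4 to 33.4 with all cells and 2.71 to 6.40 without those with a load, on 7 to 36 UMIs. The globin genes Hbb-bt, Hba-a1 and Hbb-bs had 157 to 243 with all cells and 0.594 to 1.47 without those with a load.

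Among the genes with the smallest ratios, the metallothioneins, which bind zinc and copper, were among the lowest. Mt2 had 179 against 855 CPM (ratio 0.209, 0.185 to 0.236) and Mt1 244 against 955 CPM (0.256, 0.230 to 0.283), with 0.188 and 0.236 without cells with a load. Alox5, the enzyme that starts leukotriene synthesis, had 0.261 (0.175 to 0.376) on 29 UMIs, and Il23a, a subunit of interleukin-23, 0.267 (0.152 to 0.434) on 16 UMIs. Tmsb15a, a thymosin that binds actin, had 216 against 718 CPM (0.301, 0.269 to 0.336). Dnm3, Nxnl2, Tdrd9, Fam178b, Stard10 and Rasd2 had 0.222 to 0.343, on 9 to 29 UMIs.

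The 54 interferon-response cells that entered the gate with 1 UMI of Ncr1, Klrb1c and Eomes differed from the 156 with 3 or more. They had 800 against 164 CPM of Isg15, 19255 against 8325 CPM of antiviral effectors, 3146 against 7844 CPM of Gzmb and 2036 against 223 CPM of Ctss, a protease of antigen-presenting cells. Their median depths were 2458 and 5436 UMIs per cell, and 57.4% and 21.2% of them carried a load.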
